A study of Mus musculus with 9 samples.

Results

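The genes described here encode the proteasome, its assembly factors and its activators, and their RNA was measured in sorted neuronal nuclei of the mouse hippocampus. They were chosen by name, as the protein-coding genes whose mouse symbol consists of Psm, a letter from a to g, a number and any further letters. Of 50 such genes, 4 were left out because they lie on chromosome 14 between 47.2 and 55.7 Mb of mm10, namely Psmb5, Psmb11, Psme1 and Psme2. This left 46 of the 48709 genes in the count data. By role they comprised 8 alpha subunits, 6 constitutive and 3 inducible beta subunits, 6 base ATPases, 3 further base subunits, 8 lid subunits, 7 assembly factors, 4 activators or inhibitors and Psmc3ip. Psmc3ip matches only by name, since its product is a meiotic recombination factor and not a proteasome subunit.

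The proteasome is the protease that degrades proteins marked with ubiquitin chains. Its barrel-shaped core, the 20S particle, is built from rings of alpha subunits, which gate the entrance, and rings of beta subunits, some of which carry the proteolytic sites. A regulatory particle caps the barrel: its base holds a ring of ATPases that unfold substrates, and its lid removes the ubiquitin chain. Neurons do not divide and rely on this system to clear damaged proteins and to remodel synapses, and interferon or activated immune cells can replace the catalytic beta subunits by inducible ones.

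RNA was sequenced from NeuN-positive hippocampal nuclei of 9 mice at 6 months of age, in 3 groups of 3: WT with vehicle, Tg4-42 with vehicle and Tg4-42 with caffeine. Tg4-42 mice, on a C57BL/6J background, carry a Thy1-driven transgene that produces human Aβ4-42 in neurons and were kept homozygous, and the WT mice were C57BL/6J. Caffeine was given in the drinking water at 300 mg/l for 4 months from the age of 2 months, and the other mice drank plain water. The comparisons ask how gene expression in these neurons differed with the transgene and with caffeine. Tg4-42 mice were kept as a line of their own, so the transgene and other differences from WT mice cannot be told apart. Each library is called a mouse here, since its title carries a number of its own, although the labels do not say whether a library pools nuclei of several animals. No WT mice with caffeine were among the samples, and the RNA is nuclear, so the values do not describe cytoplasmic mRNA or protein.

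Exon counts summed to between 9342945 and 16376922 per library, and the proteasome genes took 0.41% to 0.51% of them. Levels are given as CPM, counts scaled to a common library size after TMM scaling, and 3 counts, taken as the floor of detection, correspond to 0.183 to 0.321 CPM with counting error only. The neuronal markers Rbfox3, Snap25 and Syt1 were present in every library. The 6 neuronal markers summed to 6822 to 7435 CPM in WT, 6640 to 8145 in Tg4-42 and 5886 to 7001 in caffeine-treated Tg4-42 mice, with 3 higher and 3 lower in caffeine-treated than in vehicle-treated Tg4-42 mice. Markers of other cells were also present, and none was at 0 counts over all 9 libraries. With caffeine, compared with vehicle in Tg4-42 mice, the estimates of all 8 dentate granule cell markers were higher (sums of 1160 to 1387 against 588.7 to 1053 CPM), those of all 4 CA1 markers lower (420.1 to 459.7 against 481.3 to 568.4) and those of all 7 interneuron markers lower (620.5 to 785.0 against 849.7 to 1321), and 3 of 4 CA3 markers were higher (104.5 to 110.6 against 90.7 to 127.9). The sums of 6 oligodendrocyte markers (252.9 to 362.2 against 361.7 to 507.9 CPM), 5 astrocyte markers (133.4 to 188.3 against 201.4 to 241.9) and 6 microglial markers (40.0 to 49.2 against 46.4 to 72.0) were lower with caffeine, with 6, 4 and 6 members lower. The 4 endothelial markers summed to 0.649 to 1.29 CPM over all libraries. In such bulk samples, fewer nuclei of a type and less RNA per nucleus cannot be told apart, and the part of the marker shifts in the proteasome values was not tested.

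In WT mice the levels of the proteasome genes, per kb of exon so that genes can be compared, fell into a broad main group and a few genes near the limit of detection. With the union of all exons as length, the ATPase Psmc5 was the highest, at 159.5 ± 18.3 CPM per kb (SD, n = 3), with the lowest WT mouse at 144.3. It was followed by the beta subunit Psmb2 at 104.7 ± 15.2 (highest mouse 118.1), the alpha subunit Psma1 at 103.3 ± 7.41 and the ATPase Psmc4 at 101.0 ± 1.00 CPM per kb. Psmc5 thus stood above Psmb2 in every WT mouse, whereas the next 3 overlapped. With the longest transcript as length, Psma1 was the highest instead, at 238.4 to 274.0 CPM per kb against 144.3 to 179.8 for Psmc5, so that the top gene depends on the length. Of the 45 pairs of neighbours in the order, 39 overlapped between mice, so most adjacent ranks are not distinguished.

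The subunits that are present in equal copies in the particle did not have equal nuclear RNA levels. Over 30 constitutive core, base and lid subunits, the WT means per kb spanned 19.4-fold, from Psmc5 to the beta subunit Psmb3 at 8.23 ± 0.753 (SD, n = 3). Among alpha subunits the range ran from Psma1 down to Psma5 at 19.4 ± 2.94 CPM per kb, apart from Psma8, and among ATPases from Psmc5 to Psmc6 at 25.3 ± 0.86. In the lid, Psmd7 at 65.3 ± 11.8 was highest and Psmd11 at 11.8 ± 0.794 lowest, and the base scaffold subunits were closer to each other, from Psmd1 at 43.3 ± 3.45 to the ubiquitin receptor Psmd4 at 54.4 ± 5.01 CPM per kb. Assembly factors had a lower median (11.6 CPM per kb over 7 genes) than the ATPases (77.4 over 6), the alpha subunits (35.5 over 8) or the lid (42.6 over 8), with Psmg2, a chaperone of the alpha ring, highest at 32.9 ± 4.61 and the base chaperone Psmd9 lowest at 9.16 ± 0.412. These orders depend on the length used, and with the longest transcript in place of all exons 8 of 46 genes moved by more than 5 ranks. Psmd9 then had the next to highest level of the assembly factors, at 25.2 ± 1.13, and Psmg4 the lowest, at 9.35 ± 3.56. Psmd1 became the highest of the further base subunits, at 101.1 ± 8.04, and Psmd6 the highest of the lid, at 108.2 ± 16.8 CPM per kb (SD, n = 3).

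**Figure D1:**
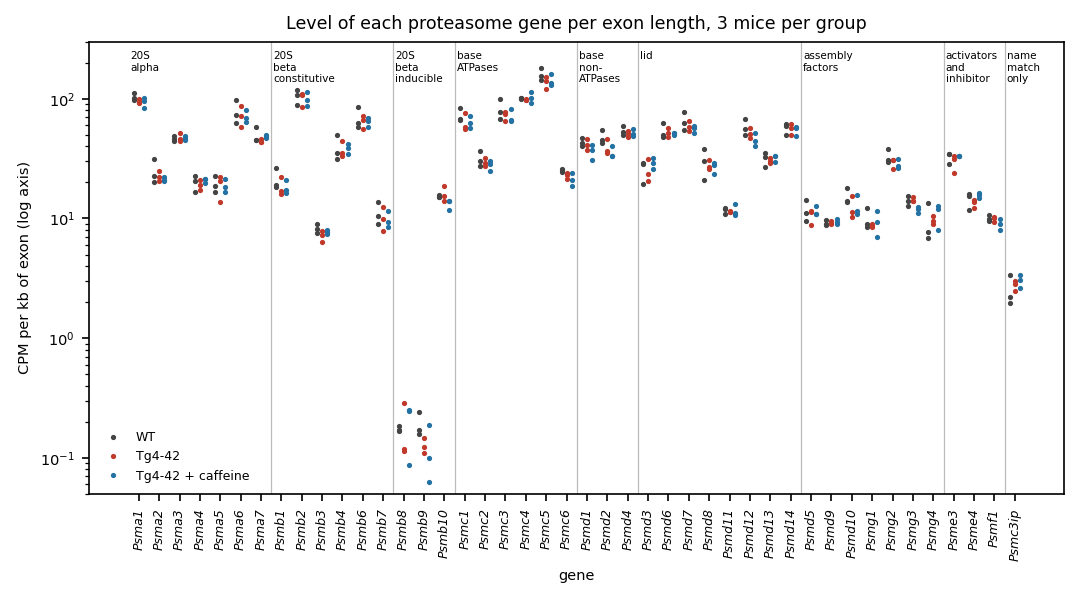
CPM per kb of exon on a log axis for the proteasome genes, 3 points (mice) per group, with lines between role classes; Psma8 and Psme2b, with counts of 0 in several libraries, are left out. With this length Psmc5 is highest (with the longest transcript Psma1 is), and Psmb8 and Psmb9 lie below every other gene shown in all groups.

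The inducible beta subunits behaved unequally. Psmb8, the immunoproteasome replacement of the Psmb5 subunit, had 4 to 12 counts per library, and Psmb9, the replacement of Psmb6, had 3 to 14. In WT mice Psmb9 was at 0.191 ± 0.0445 CPM per kb and its constitutive counterpart Psmb6 at 68.7 ± 14.1 (SD, n = 3). The third inducible subunit, Psmb10, was at 15.3 ± 0.364 CPM per kb and its counterpart Psmb7 at 11.1 ± 2.49 (SD, n = 3). Per kb, every WT mouse had more Psmb10 (15 to 15.7) than any had Psmb7 (8.96 to 13.8). The same held in vehicle-treated Tg4-42 mice, with 14.1 to 18.6 against 7.84 to 12.5. It also held in caffeine-treated Tg4-42 mice, with 11.7 to 14.1 against 8.47 to 11.6. With the longest transcript as length, the WT values were 19.9 ± 0.474 for Psmb10 and 13.3 ± 2.99 CPM per kb for Psmb7. In CPM without a length, the order was the reverse in every library. Psmb7 was at 35.7, 47.2 and 30.6 CPM in WT mice and Psmb10 at 26.8, 25.8 and 25.6. The order thus depends on the annotated exon lengths, with all exons 3421 bases for Psmb7 and 1705 for Psmb10. Exons of Nek6 on the opposite strand cover 11.8% of the exon sequence of Psmb7, against 0.0% overlapped for Psmb10. The libraries do not mark strand, so the Psmb7 level is uncertain in this way also. Psmb10 and Psmb7 come from the same libraries, and no test was run between genes. The 6 microglial markers together reached 44.5 to 67.0 CPM in WT mice, compared with 25.6 to 26.8 CPM for Psmb10 and 0.569 to 0.628 for Psmb8.

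The differential test used 43 of the 46 genes. The alpha subunit Psma8, a testis form (0 to 2 counts per library), Psmb9 and Psme2b (0 to 2 counts) did not pass the filter on low counts. Psme2b is a copy of the Psme2 activator gene. Psma8 and Psme2b stayed below the floor of 3 counts in every library. Counts could also be shared with other genes. Of the 50-base stretches of annotated transcripts, 69.3% for Psme2b occurred in transcripts of other genes, Psme2 among them. The part of this sharing in the low counts of Psme2b was not tested. The share was 55.4% for Psma5, 31.5% for Psma4, 26.1% for Psmd2 and 22.0% for Psma3. For Psmc3ip the share was 27.1%, with Mlx on the opposite strand, for Psmc1 17.6%, for Psmd13 15.8% and for Psmb3 10.1%. Of the exon sequence of Psmd9, 25.5% overlapped another gene. The values of these genes are therefore uncertain.

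None of the 43 genes passed the test in any comparison. With edgeR's quasi-likelihood test and Benjamini-Hochberg adjustment over all 17361 tested genes, 0 of 43 were called for Tg4-42 against WT, 0 for caffeine against vehicle in Tg4-42 mice and 0 for Tg4-42 with caffeine against WT. Of all tested genes, 0.0979%, 0.881% and 0.415% were called in these comparisons. DESeq2, run on the 30820 genes with any count and on all 46 proteasome genes, also called 0 of the proteasome genes. It called 0.0811%, 2.4% and 1.75% of those 30820 genes, a larger set than that of edgeR. With limma-voom, on the same 17361 genes as edgeR, it was 0 of 43 as well, with 0.0922%, 3.38% and 0.72% of the 17361 called. At an unadjusted p under 0.05 there were 0, 1 and 2 of the 43, compared with 2.74%, 17.0% and 15.4% of all tested genes. The lowest adjusted p were 1.00, 0.282 for Psmg3 and 0.171 for Psmd2 (edgeR).

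The estimates were small and their intervals fairly narrow. The size of the log2 fold change exceeded 0.25 for 2, 2 and 6 of the 43 genes, compared with 22.3%, 43.0% and 41.5% of all tested genes. The 95% interval lay entirely within 0.5 either way on the log2 scale, a change of up to 1.41-fold, for 33, 35 and 25 of the 43, compared with 45.4%, 31.5% and 31.9% of all tested genes. The median within-group SD of the proteasome genes was also lower than that of all tested genes, at 0.177 against 0.223 on the log2 scale. Their median biological coefficient of variation was 0.126 against 0.162. None of these comparisons with all tested genes was matched for expression level, and the part of level in them was not tested. The base chaperone Psmd9 (SD 0.0595), the alpha subunit Psma3 (0.0805) and Psmc4 (0.0918) were the steadiest, and Psmb8 (0.349), at a few counts, was among the most variable.

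**Figure D2:**
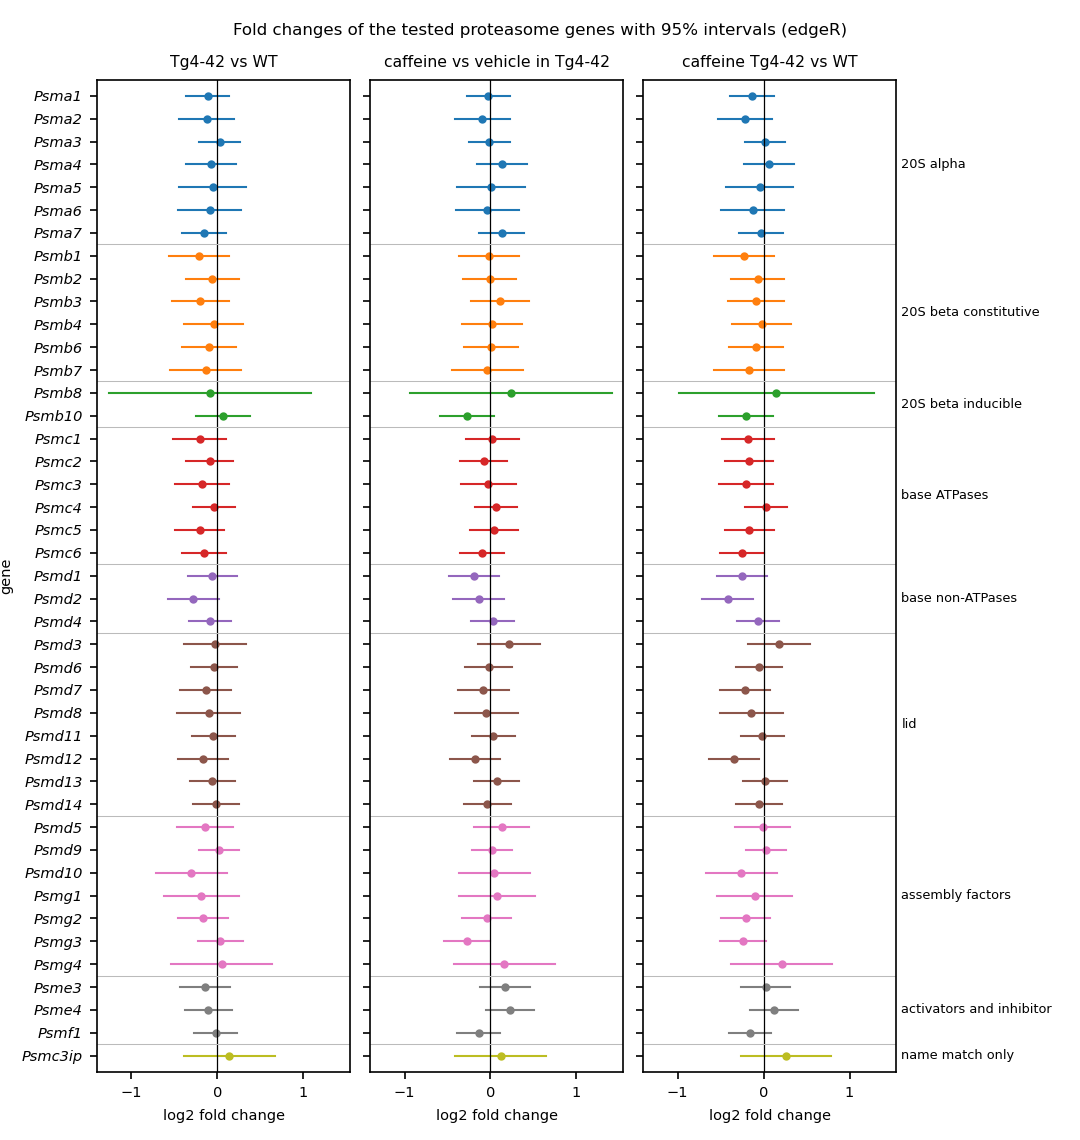
Log2 fold change (points) and 95% interval (bars) of the 43 tested genes in the 3 comparisons, coloured and separated by role class, from edgeR. The points lie between -0.42 and 0.26, the intervals are widest for the low-count genes Psmb8, Psmg4 and Psmc3ip, and 0 of 43 genes passed the adjusted threshold in each panel.

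Between vehicle-treated Tg4-42 and WT mice, 37 of 43 estimates were below 0 and 6 above, with a median log2 fold change of -0.09 against 0.00 over all tested genes, of which 49.5% were below 0. The 6 constitutive beta subunits, 6 ATPases, 3 further base subunits and 8 lid subunits were all on the lower side, with class medians of -0.12, -0.17, -0.09 and -0.05, and so were 6 of 7 alpha subunits. In this comparison the estimates of all 7 interneuron markers (sums of 849.7 to 1321 CPM in Tg4-42 against 845.6 to 931.6 in WT), all 6 microglial markers (46.4 to 72.0 against 44.5 to 67.0) and 5 of 6 oligodendrocyte markers (361.7 to 507.9 against 326.3 to 481.3) were higher and those of all 4 CA1 markers lower (481.3 to 568.4 against 491.9 to 685.3), with overlapping sums, and their part in the proteasome values was not tested. The direction of the proteasome genes rested on WT mouse 2. Without it, the median was 0.00 and 20 of 43 estimates were below 0.

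The largest negative estimate was that of Psmd10 (gankyrin), a chaperone of base assembly. It was at 20.2, 26.3 and 20.5 CPM in WT mice, 15.2, 16.5 and 22.6 in vehicle-treated Tg4-42 mice and 22.9, 17.1 and 16.1 in caffeine-treated Tg4-42 mice. The groups overlapped, since Tg4-42 mouse 3 lay above the lower WT mice. The log2 fold change between Tg4-42 and WT was -0.30 (SE 0.19, adjusted p = 1.00, edgeR). Psmb1, a structural beta subunit, came after Psmd2 at -0.21, with 87.9, 122.2 and 83.8 CPM in WT, 77.7, 74.2 and 101.7 in Tg4-42 and 96.3, 79.4 and 75.1 in caffeine-treated Tg4-42 mice. Here also only WT mouse 2 stood apart from the Tg4-42 mice. The ATPases Psmc5 and Psmc1 followed, each with a log2 fold change of -0.21 between Tg4-42 and WT. For Psmd10 the log2 fold change between caffeine-treated Tg4-42 and WT mice was -0.26 (adjusted p = 0.547, edgeR).

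Psmd2, a scaffold subunit of the base that binds ubiquitin-like domains, had the lowest estimate of the set between caffeine-treated Tg4-42 and WT mice, and the next to lowest, after Psmd10, between Tg4-42 and WT. Its levels were 182.4, 220.8 and 173.4 CPM in WT, 142.2, 147.2 and 185.7 in vehicle-treated Tg4-42 and 162.8, 134.3 and 134.4 in caffeine-treated Tg4-42 mice. All caffeine-treated mice lay below all WT mice, whereas Tg4-42 mouse 3 lay within the WT range. Between caffeine-treated Tg4-42 and WT mice the log2 fold change was -0.42 (SE 0.14, 95% interval -0.72 to -0.12, adjusted p = 0.171, edgeR), between vehicle-treated Tg4-42 and WT mice it was -0.28 (adjusted p = 1.00) and between caffeine and vehicle -0.14 (adjusted p = 0.662). The first value ranged from -0.52 to -0.31 with each mouse left out, being -0.31 without WT mouse 2. The exact permutation test over these 3 and 3 mice gave 0.1, the lowest p that this test can give with such groups.

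**Figure D3:**
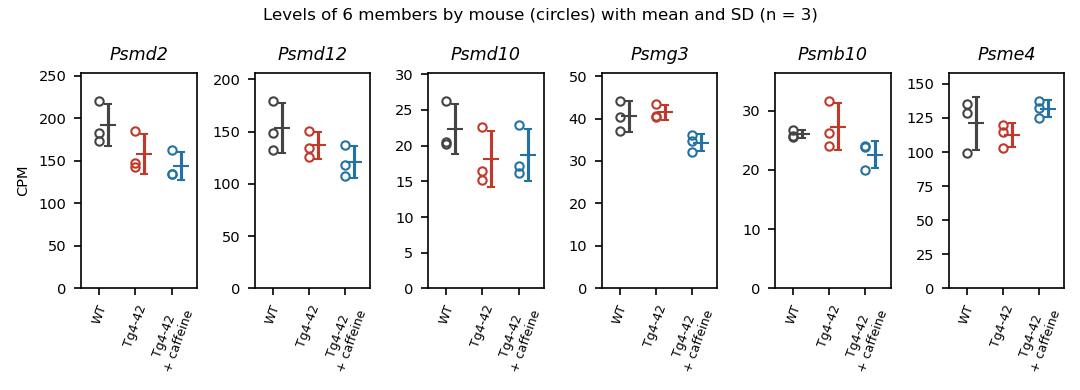
CPM of 6 selected proteasome genes, each circle a mouse, with the mean and SD (n = 3) beside it, on axes that start at 0. Psmd2, Psmg3 and Psmb10 in caffeine-treated mice lie below all WT mice, and Psme4 in caffeine-treated mice lies above all vehicle-treated Tg4-42 mice. The WT and vehicle-treated Tg4-42 groups overlap for all 6.

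Psmd12, a structural lid subunit, was the other gene at an unadjusted p under 0.05 between caffeine-treated Tg4-42 and WT mice. It was at 148.6, 179.5 and 132.5 CPM in WT, 134.5, 125.3 and 150.3 in vehicle-treated Tg4-42 and 136.8, 118.3 and 107.4 in caffeine-treated Tg4-42 mice. Caffeine mouse 1 lay above the lowest WT mouse. The log2 fold change was -0.35 (SE 0.14, unadjusted p = 0.0234, adjusted p = 0.246, edgeR) and became -0.22 without WT mouse 2. Psmd1, a base scaffold, was at 311.3, 341.4 and 291.6 CPM in WT, 271.0 to 335.5 in vehicle-treated and 299.1, 272.1 and 222.1 in caffeine-treated Tg4-42 mice, a log2 fold change of -0.25 against WT and of -0.19 against vehicle. Its low value was that of caffeine mouse 3. Over all 43 genes the median between caffeine-treated Tg4-42 and WT mice was -0.09 with 32 below 0, against -0.01 and 51.5% over all tested genes. Without WT mouse 2 the median was 0.01 and 20 genes were below 0. Both comparisons with WT share the same 3 WT libraries. Against WT, all 8 dentate granule cell markers had higher estimates with caffeine (sums of 1160 to 1387 against 714.2 to 966.1 CPM). All 4 CA1 (420.1 to 459.7 against 491.9 to 685.3) and all 7 interneuron markers (620.5 to 785.0 against 845.6 to 931.6) were lower. Of glial markers, all 6 oligodendrocyte, all 5 astrocyte and 4 of 6 microglial were lower. Higher were 3 of 4 CA3 and 3 of 6 neuronal markers. The part of these markers in the proteasome values was not tested.

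For caffeine against vehicle in Tg4-42 mice, the estimates were balanced, with 22 above and 21 below 0 and a median of 0.00 against -0.01 over all tested genes. Class medians lay between -0.14 for the 3 further base subunits and 0.17 for the 3 tested activators and inhibitors, with the ATPases at 0.00 and the alpha subunits at -0.01. Of the 43 genes, 4 had groups that did not overlap, compared with 23.0% of all tested genes. These were Psma7 and Psme4, 2 genes higher with caffeine (10.4% of all tested genes), and Psmb10 and Psmg3, 2 genes lower (12.6%). For Tg4-42 against WT, 2 of 43 did not overlap, compared with 6.73% of all tested genes: 0 were higher (3.57%), and Psmc4 and Psmc6 were lower (3.16%). For Tg4-42 with caffeine against WT, 4 of 43 did not overlap, compared with 18.8%: 0 were higher (9.14%), and Psmb10, Psmc6, Psmd2 and Psmg3 were lower (9.67%).

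Psmg3 is a chaperone that works with Psmg4 in early assembly of the alpha ring. It was at 43.5, 40.3 and 40.7 CPM in vehicle-treated and 36.2, 34.6 and 32.2 in caffeine-treated Tg4-42 mice, with 40.4, 37.0 and 44.2 in WT mice. Every caffeine-treated mouse lay below every other mouse. The log2 fold change against vehicle was -0.27 (SE 0.12, 95% interval -0.54 to -0.01, unadjusted p = 0.0446, adjusted p = 0.282, edgeR), and it ranged from -0.31 to -0.23 with each mouse left out. Exons of the gene Gm26938 cover 9.7% of the exon sequence of Psmg3. Its partner Psmg4 was at 3.84, 7.45 and 4.27 CPM in WT, 4.98, 5.84 and 5.30 in vehicle-treated and 6.69, 4.42 and 7.0 in caffeine-treated Tg4-42 mice, with overlapping groups and a log2 fold change of 0.16 (adjusted p = 0.809, edgeR). The chaperone pair thus had estimates of opposite sign, and the difference between them was not tested.

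Psmb10 was at 26.8, 25.8 and 25.6 CPM in WT, 26.2, 24.1 and 31.7 in vehicle-treated and 24.0, 23.8 and 20 in caffeine-treated Tg4-42 mice. The caffeine-treated mice were the lowest, but Tg4-42 mouse 2 lay only slightly above them. The log2 fold change was -0.27 (SE 0.15, adjusted p = 0.377, edgeR), and -0.14 without Tg4-42 mouse 3. The microglial marker sum, 40.0 to 49.2 CPM with caffeine and 46.4 to 72.0 with vehicle, was also lower, and its part in the Psmb10 value was not tested. Psmb8 was at 0.628, 0.569 and 0.582 CPM in WT, 0.974, 0.385 and 0.402 in vehicle-treated and 0.294, 0.830 and 0.846 in caffeine-treated Tg4-42 mice, and its interval of -0.94 to 1.41 between caffeine and vehicle spans 0 on both sides at this depth.

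Among the activators, Psme4 (PA200), a single-chain cap that opens the core without ATP, was at 128.3, 99.1 and 135.6 CPM in WT, 120.2, 114.9 and 102.7 in vehicle-treated and 137.7, 132.1 and 125.2 in caffeine-treated Tg4-42 mice. The caffeine-treated mice were above the vehicle-treated ones, whereas the WT mice spanned both. Its log2 fold change was 0.23 between caffeine and vehicle (SE 0.13, adjusted p = 0.401, edgeR). Psme3 (PA28 gamma), the nuclear activator, had 0.17 and the inhibitor Psmf1 (PI31) had -0.14 in the same comparison, with adjusted p of 0.568 and 0.593 (edgeR). Psmd3, a lid subunit, was at 97.4, 141.4 and 143.8 CPM in WT, 102.6, 154.7 and 116.9 in vehicle-treated and 129.7, 144.5 and 159.5 in caffeine-treated Tg4-42 mice, with a log2 fold change of 0.21 and overlapping groups. Psmc3ip, which is not a subunit, was at 3.61, 4.04 and 6.08 CPM in WT, 5.19, 5.45 and 4.50 in vehicle-treated and 5.59, 6.08 and 4.77 in caffeine-treated Tg4-42 mice, with a log2 fold change of 0.26 against WT (adjusted p = 0.656, edgeR). Its groups overlapped.

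Of the genes whose groups did not overlap, some differed by very little. The ATPase Psmc4 was at 219.3, 220.0 and 215.9 CPM in WT and 210.3, 210.2 and 215.8 in vehicle-treated Tg4-42 mice, a log2 fold change of -0.04 (adjusted p = 1.00, edgeR). Another ATPase, Psmc6, was at 85.1, 90.8 and 89.7 CPM in WT, 84.1, 74.2 and 80.1 in vehicle-treated and 83.9, 74 and 65.1 in caffeine-treated Tg4-42 mice, with a log2 fold change of -0.16 and -0.25 against WT. Psmc6 lies on chromosome 14 at 45329788 to 45349705 of mm10, outside the left-out interval. The alpha subunit Psma7 was at 135.1, 132.7 and 141.4 CPM with vehicle and 153.6, 149.6 and 144.3 with caffeine, a log2 fold change of 0.13 (adjusted p = 0.638, edgeR), and WT mice, at 138.9, 178.4 and 138.6, spanned both groups.

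The clearest pattern was between mice and not between groups. WT mouse 2 was the highest of its group for 35 of 43 proteasome genes, compared with 33.1% of all tested genes. In the other groups, Tg4-42 mouse 3 was the highest for 26 (33.8% of all tested genes) and caffeine mouse 1 for 30 (38.0%), and caffeine mouse 3 was the lowest for 32 (33.0%) and Tg4-42 mouse 2 for 28 (33.4%). The summed level was 5273 CPM in WT mouse 2 and 4088 to 4655 in the other 8 mice. The group sums were 4700 ± 497.6 CPM in WT, 4375 ± 261.9 in vehicle-treated and 4345 ± 277.6 in caffeine-treated Tg4-42 mice (SD, n = 3), and with CPM on library totals 4618, 4319 and 4450, so that the order of the Tg4-42 groups depends on the scaling.

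Relative to its mean over 9 libraries, the median proteasome gene was at 0.26 in WT mouse 2 on the log2 scale, at -0.11 in Tg4-42 mouse 2 and at -0.16 in caffeine mouse 3, while the median of all tested genes stayed between -0.01 and 0.01. In WT mouse 2 the shift was present in the constitutive beta subunits (0.38), assembly factors (0.35), ATPases (0.31), alpha subunits (0.26), further base subunits (0.23) and lid (0.22), and was 0.04 for the activators and inhibitors. It was shared by other housekeeping sets, chosen after these values were seen. The median of 90 nuclear genes of oxidative phosphorylation was 0.32 in WT mouse 2 and -0.19 in Tg4-42 mouse 2, and that of 76 cytosolic ribosomal protein genes was 0.19 and -0.14. The ribosomal protein genes parted from the proteasome genes in caffeine mouse 3, with 0.09 against -0.16. Their medians also differed in sign in Tg4-42 mouse 3 (-0.13 against 0.06), caffeine mouse 2 (0.10 against -0.04) and caffeine mouse 1 (-0.01 against 0.07). WT mouse 2 had the largest library, and what set it apart was not tested.

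**Figure D4:**
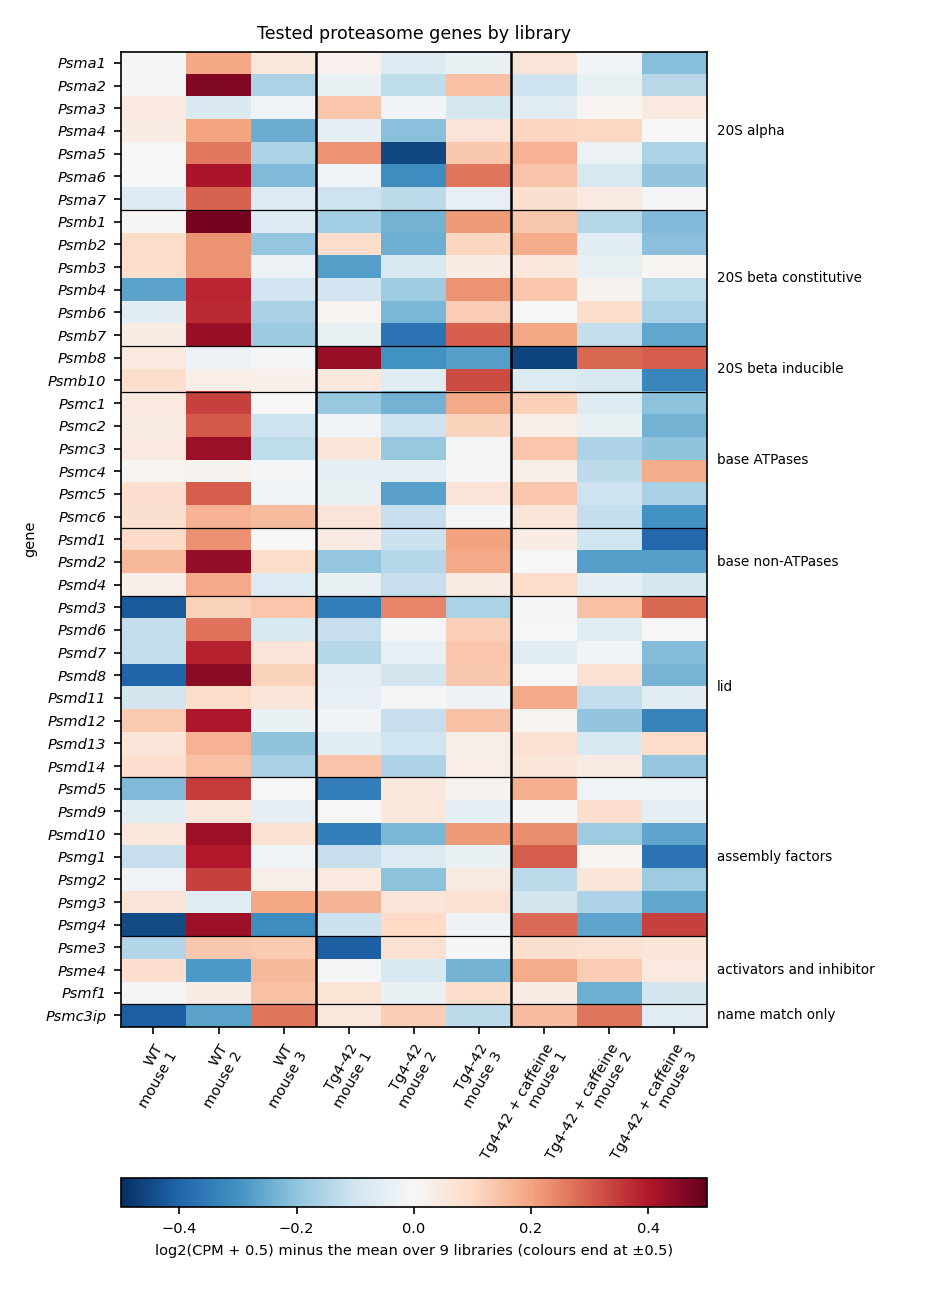
Heat map of log2(CPM + 0.5) minus its mean over the 9 libraries for the 43 tested proteasome genes, by role class (rows) and mouse (columns), with colours that end at 0.5 either way. The column of WT mouse 2 is red for most core, base and lid genes, the column of caffeine mouse 3 mostly blue, and Psmb8, Psme4, Psmd3 and Psmc3ip do not follow these columns.

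**Figure D5:**
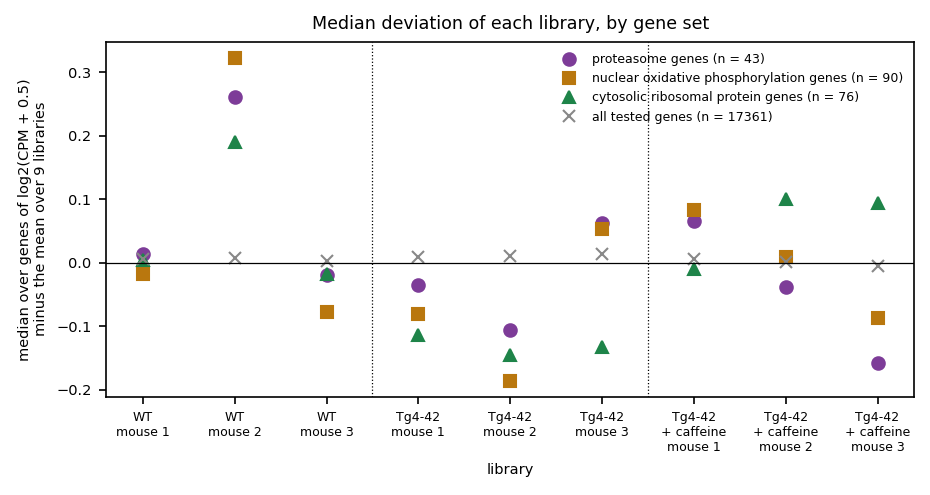
Median over genes of the same deviation in each library, for the 43 proteasome genes (circles), 90 oxidative phosphorylation genes (squares), 76 cytosolic ribosomal protein genes (triangles) and all 17361 tested genes (crosses). The first 3 sets peak in WT mouse 2, at 0.26, 0.32 and 0.19, and all tested genes stay near 0 in every library.

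Since these genes varied together, the letters of their promoters were compared with those of other genes. RefSeq windows of GRCm38.p6 from 250 bases before to 50 after the start were found for 38 of the 46 genes, in 40 windows. The letters CCGGAAGT, bound by ETS family factors, occurred on either strand in 9 of the 38 genes (23.7%), compared with 4.31% of 27025 genes. The letters TGACNNNGC, the antioxidant response element through which Nfe2l1 and Nfe2l2 act on proteasome genes, occurred in 5 of 38 (13.2%) against 14%, and CCAAT in 14 of 38 (36.8%) against 41.1%. No match of the first 2 motifs overlapped a match of another. The 27025 genes are all those with a window, whether or not they were expressed in these nuclei. They were not matched to the proteasome genes for expression or base composition. Whether the letters have a part in the shared variation was not tested. A match is a description of letters and not of a bound site. Examples that lie wholly before the RefSeq start follow, read 5′ to 3′ on the strand of the gene, with the ETS letters of 5 windows and then the antioxidant response element of 2 in capitals, on either strand. The RefSeq starts differ from the GENCODE M21 gene bounds used for the exons: by those bounds the stretch of Psmc6 and the first of Psmc2 lie before the gene, those of Psme4 and Psmd6 span its start, and those of Psmc1 and Psmd9 and the second of Psmc2 lie inside it.
Psmc1, chr12:100110162-100110191, plus strand: ttggtggatgcACTTCCGGcggtggcgatt
Psmc2, chr5:21785179-21785208, plus strand: gaccagtgagcACTTCCGGgatggggctcg
Psmc2, chr5:21786711-21786740, plus strand: ggcgcggagctACTTCCGGtggggaagaga
Psmd6, chr14:14120972-14121001, minus strand: cagagacgcgaCCGGAAGTcagactggcgg
Psme4, chr11:30771711-30771740, plus strand: gtggccccgccCCGGAAGTgacttgaggcc
Psmd9, chr5:123228149-123228177, plus strand: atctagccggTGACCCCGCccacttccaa
Psmc6, chr14:45329587-45329615, plus strand: ccagccagtaGCTAAGTCAggcattgctc
Of these genes, Psmc1, Psmc2, Psmc6 and Psmd6 were highest in WT mouse 2, whereas Psme4 was lowest there and Psmd9 stayed between 64.5 and 71.1 CPM in all 9 mice.

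Genes that work with the proteasome were not called either. Of 17 partner genes (docking subunits, chaperones, shuttles and deubiquitinases), 16 were tested and 0 called in each comparison, with 5, 9 and 10 estimates above 0. The largest was that of Zfand5, a proteasome activator that binds the particle under stress. It was at 76.4, 91.8 and 81.7 CPM in WT, 68.1, 78.2 and 74.4 in vehicle-treated and 90.5, 96.2 and 105.2 in caffeine-treated Tg4-42 mice, and the caffeine-treated mice were above all vehicle-treated ones. The log2 fold change was 0.40 between caffeine and vehicle (unadjusted p = 0.0039, adjusted p = 0.109, edgeR). The core chaperone Pomp and the lid subunit Sem1 had -0.02 and -0.01 in the same comparison.

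Of 8 genes that control proteasome transcription, 0 were called in each comparison and 5 of 8 had estimates above 0 in each. Nfe2l1, the factor that restores proteasome genes when the proteasome is inhibited, was at 136.1, 183.1 and 187.5 CPM in WT, 158.6, 179.0 and 171.3 in vehicle-treated and 141.2, 123.2 and 137.2 in caffeine-treated Tg4-42 mice. The caffeine-treated mice lay below all vehicle-treated ones, with a log2 fold change of -0.34 (adjusted p = 0.206, edgeR). Nfe2l2 (NRF2), the factor of the oxidative stress response, was at 1.30 to 2.01 CPM with vehicle and 2.42 to 3.23 with caffeine. The log2 fold change was 0.74 (adjusted p = 0.221, edgeR). The WT mice, at 2.35, 2.78 and 2.26 CPM, overlapped the caffeine-treated ones, with a log2 fold change of 0.22 between them (adjusted p = 0.752, edgeR). These related factors thus had estimates of opposite sign, and neither passed the test.

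Of 6 genes for ubiquitin and its activating enzymes, 0 were called in each comparison. Uba1, the main ubiquitin-activating enzyme, was at 225.2, 229.5 and 198.3 CPM in WT, 181.1, 189.4 and 203.0 in vehicle-treated and 183.4, 123.8 and 144.2 in caffeine-treated Tg4-42 mice. The estimate was -0.35 on the log2 scale against vehicle (adjusted p = 0.222) and -0.53 against WT (adjusted p = 0.0926, edgeR). Ubb, a polyubiquitin gene, had -0.18 between caffeine and vehicle (adjusted p = 0.624, edgeR).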

How the data were processed

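Hippocampi had been frozen, and their nuclei were sorted by NeuN staining. The authors prepared libraries with SMART-Seq v4 and Nextera XT, aligned 50-base single-end reads to mm10 with STAR and counted reads on exons with featureCounts, and they deposited whole counts per gene without normalization. The versions of these tools are not given in the sources used here. Libraries amplified this way do not mark strand. A treatment is labelled for the caffeine group only, so genotype labels define both groups on vehicle. The labels state 6 animals in each group for nuclei isolation, and 3 libraries per group were analysed here.

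Ensembl identifiers were matched to GENCODE M21, which gave symbols to 48349 of 48709 genes. Counts were analysed in R 4.3.3 with edgeR 4.0.16: TMM scaling, edgeR's filter over the 3 groups (minimum count 10, minimum total 15), robust dispersions, a quasi-likelihood F test on all 9 libraries in a single fit, and Benjamini-Hochberg adjustment at 0.05 over 17361 genes. Two-sided exact permutation tests of single genes used log2 CPM with a pseudocount of 0.5, and for 3 mice against 3 cannot give a p under 0.1. Exon lengths are the union of exons of all transcripts. The alternatives were DESeq2 1.42.0, limma-voom with quality weights (limma 3.58.1), RLE factors, no filter, a filter at a mean of 50 counts, a fit of the compared groups alone, the replicate block, the sequencing lane, edgeR's version 4 method, and GC and length corrections, and each mouse was left out in turn. The scripts were tested on simulated data.

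The genes, classes, partner and marker lists were chosen with earlier results of these data known, as were the motifs. Genes named are those with the 5 largest rises and falls per comparison, the highest and lowest per class, the inducible subunits with their counterparts, and the largest changes of each partner list, apart from a result that is not reported here. Genes whose groups did not overlap, and the steadiest and most variable genes, were added after their values were seen.

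Replicates were numbered in the order of the numbers in the sample titles. Between WT and vehicle-treated Tg4-42 mice, same-numbered mice deviated together across genes, with correlations of 0.188, 0.138 and 0.156. All were over 0.1, so that the numbers were taken as pairing there from the data alone. In another comparison, mice with different numbers reached 0.215, namely caffeine mouse 1 and WT mouse 3, so such values do not establish pairs. The main tests did not use the pairing, and the fit with the replicate block is given below. Replicates 1 and 2 of each group were sequenced on lane 6 and replicate 3 on lane 7, so that lane and replicate 3 cannot be told apart. The labels name no litter or cage, and whether a library pools animals is not stated, so SDs and p-values measure the spread between these libraries only.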

Additional observations from a re-analysis of the deposited data

How the results depend on the processing

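No proteasome gene was called in any of the 51 further fits, 18 of which left out a mouse. The lowest adjusted p in any of them was 0.0914, for Psmd2 between caffeine-treated Tg4-42 and WT mice with DESeq2. Of all genes, these fits called 0% to 3.38%, so some could hardly have called a member. Between caffeine and vehicle, 0 of 17761 genes were called without Tg4-42 mouse 3 and 0 of 17760 without caffeine mouse 3. With lane as a covariate, 9 of 17361 were called there. With the replicate block, 0 of 43 genes were called in each comparison and the medians were -0.08, -0.01 and -0.09, so that the pairing changed no call. Same-numbered mice had correlations of 0.152, 0.181 and -0.171 between caffeine and vehicle and of -0.17, 0.00751 and -0.106 between caffeine-treated Tg4-42 and WT mice, where the numbers are only shared. With each mouse left out, the median of the proteasome genes ranged from -0.16 to 0.00 (Tg4-42 against WT), -0.07 to 0.07 (caffeine against vehicle) and -0.17 to 0.01 (caffeine-treated Tg4-42 against WT). Some estimates changed sign with a mouse left out, none of them called: between Tg4-42 and WT, Psma3 ranged from -0.037 to 0.068, Psmg3 from -0.0278 to 0.0913, Psmg4 from -0.12 to 0.41, Psmb10 from -0.062 to 0.15 and Psmc3ip from -0.0021 to 0.39. Between caffeine and vehicle, Psmd2 ranged from -0.24 to 0.0065 and Psmb8 from -0.0083 to 0.73. Between caffeine-treated Tg4-42 and WT mice, Psme4 ranged from -0.0034 to 0.22 and Psmb8 from -0.0624 to 0.49. The other 497 recomputed values kept their direction and their side of the threshold, or moved by less than the spread between mice. With 3 mice per group, the median half-width of the 95% interval was 0.29 on the log2 scale. A call must also pass the adjustment over all tested genes. Psmd2, at -0.42 between caffeine-treated Tg4-42 and WT mice, was not called, so changes of this size in single genes could be missed.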
